A study of Mus musculus with 12 samples.

Results

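The Kelch-like genes encode a family of proteins that hand substrates to the cullin 3 ubiquitin ligase, and their transcripts were followed here in mouse tibialis anterior, a fast muscle of the lower leg. Members were all genes with a symbol made of Klhl and a number and with at least 10 counts summed over the 12 libraries. There were 35 such genes among the 22607 rows of the count table. Klhl1, with 1 count in all, fell under that minimum. Of the 35, 31 had enough counts in a sufficient number of libraries, of any group, to be tested, and Klhl10, Klhl14, Klhl32 and Klhl35 had not. The 31 comprised 7 genes known for expression in striated muscle (Klhl30, Klhl31, Klhl33, Klhl34, Klhl38, Klhl40 and Klhl41) and 24 others.

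The study crossed a diet with a vector in C57BL/6 males aged 13 weeks. Muscles carried either a GFP vector, which the design text calls empty, or one that drives Crtc2, which assists the cAMP-responsive transcription factor Creb1. Mice were fed ad libitum (fed) or taken through 3 rounds of alternate day fasting (ADF). This gave 4 groups of 3 mRNA-seq libraries, called fed GFP and ADF GFP, and fed Crtc2 and ADF Crtc2. The promoter of the vectors, the share of fibres transduced, and whether each library came from its own animal are not given in the sources used here, so p-values measure the spread between libraries, which may be technical.

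A Kelch-like protein carries a BTB domain, which binds the cullin, and Kelch repeats, which bind the substrate. The cullin 3 scaffold and the RING protein Rbx1 bring in the ubiquitin-charged enzyme, and attachment of the small modifier Nedd8 to the cullin switches the ligase on. In skeletal muscle the best known members are Klhl40 and Klhl41, which stabilise thin filament proteins such as nebulin and leiomodin 3 and are mutated in nemaline myopathy, and Klhl31, whose loss causes a congenital myopathy in mice with build-up of filamin C.

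Library totals ran from 24232450 to 34610417 counts, and 14313 to 17226 genes had at least 1 count. Levels are CPM, which are counts divided by library sizes that were scaled by the trimmed mean of M values (TMM). Overlap of libraries was judged on this scale and could differ with unscaled library totals. A count of 3, used as the floor of detection, corresponded to 0.0814 to 0.13 CPM. Between 68.9% and 74.7% of low counts, from 2 to 21, were even numbers in each library, and no counting interval is given. The vector's gene, Crtc2, stood at 58.2 to 77.9 CPM in fed Crtc2 muscle against 17.3 to 29.2 CPM in fed GFP muscle. Under ADF it was at 31.4 to 42.8 CPM with the Crtc2 vector and at 16.1 to 23.6 CPM with GFP, so the groups did not overlap within either diet. The 8 markers of the muscle fibre summed to between 101860 and 184451 CPM, against 1.21 to 29.8 CPM for 6 B cell markers, 1.12 to 90.9 CPM for 6 T cell markers and 80.2 to 518 CPM for 7 macrophage markers. The immune marker sums were lowest in ADF Crtc2 muscle, at up to 3.33 CPM for B cells, 3.55 CPM for T cells and 144 CPM for macrophages, where they overlapped the range of fed Crtc2 muscle. The 6 fibroblast markers summed to 1647 to 3473 CPM in ADF GFP and 794 to 1228 CPM in ADF Crtc2 muscle, against 766 to 2044 CPM fed with GFP and 581 to 1704 CPM fed with Crtc2. Of these 6, 1 rose under ADF in GFP muscle by edgeR. With each vector 2 of the 8 muscle fibre markers rose under ADF. In Crtc2 muscle 2 of 6 endothelial, 1 of 5 tested B cell and 1 of 6 T cell markers fell under ADF. Under ADF, 3 of 7 macrophage, 1 of 5 tested B cell and 1 of 6 T cell markers were lower with Crtc2 than GFP. For comparison, 4.06% of all genes tested rose under ADF in GFP muscle, and 6.3% rose and 4.68% fell in Crtc2 muscle. The share of all genes lower with Crtc2 than GFP under ADF was 0.65%. The 6 endothelial markers summed to 203 to 270 CPM in ADF Crtc2 and 324 to 443 CPM in fed Crtc2 muscle. With GFP they were at 270 to 411 CPM under ADF and 239 to 513 CPM fed. The 5 nerve and Schwann cell markers in the table were at 80.9 to 204 CPM in ADF Crtc2, 17.4 to 58.4 in fed Crtc2, 28.0 to 59.5 in ADF GFP and 18.2 to 166 CPM in fed GFP muscle. Their part in the values below was not tested. In bulk muscle, fewer cells of a type and less RNA per cell cannot be told apart.

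Klhl41 was the most abundant Kelch-like transcript for its length. On the scale of CPM per kilobase of exon, its level was 222 ± 3.34 in fed GFP muscle (mean ± SD, n = 3, as for all group means below), 213 ± 55.0 in fed Crtc2, 331 ± 10.7 in ADF GFP and 331 ± 30.9 in ADF Crtc2 muscle. It made up 50.2% ± 3.63 of the summed per-length level of the family in fed GFP muscle and 53.2% ± 2.54 in ADF GFP muscle. In fed GFP muscle the next levels were Klhl31 at 68.6 ± 3.26 and Klhl40 at 51.3 ± 9.39 CPM per kilobase, and the libraries of these 2 genes did not overlap there. Klhl21 (20.4 ± 8.08) and Klhl30 (17.5 ± 4.77 CPM per kilobase) followed, and lay within each other's spread. Under ADF that order differed, because Klhl21 stood at 59.8 ± 6.74 beside Klhl40 at 57.6 ± 12.9 CPM per kilobase in GFP muscle, within their spread, while Klhl31 had dropped to 30.5 ± 3.94. In ADF Crtc2 muscle Klhl21, at 76.6 ± 2.20 CPM per kilobase, was above Klhl40, at 52.8 ± 2.35, in all 3 libraries. The 7 muscle genes together held 83.9% ± 2.79 of the family's per-length level in fed GFP, 80.8% ± 2.01 in fed Crtc2, 78.6% ± 0.627 in ADF GFP and 78.0% ± 1.76 in ADF Crtc2 muscle. Klhl31 alone went from 15.4% ± 0.420 of the family's level to 4.91% ± 0.726 in GFP muscle, and from 15.7% ± 2.52 to 5.06% ± 0.431 in Crtc2 muscle. Relative to Klhl41 in the same library, Klhl31 was at 30.9% ± 1.74 in fed GFP muscle and 9.21% ± 1.03 in ADF GFP muscle. That ratio does not depend on the library scaling.

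**Figure D1:**
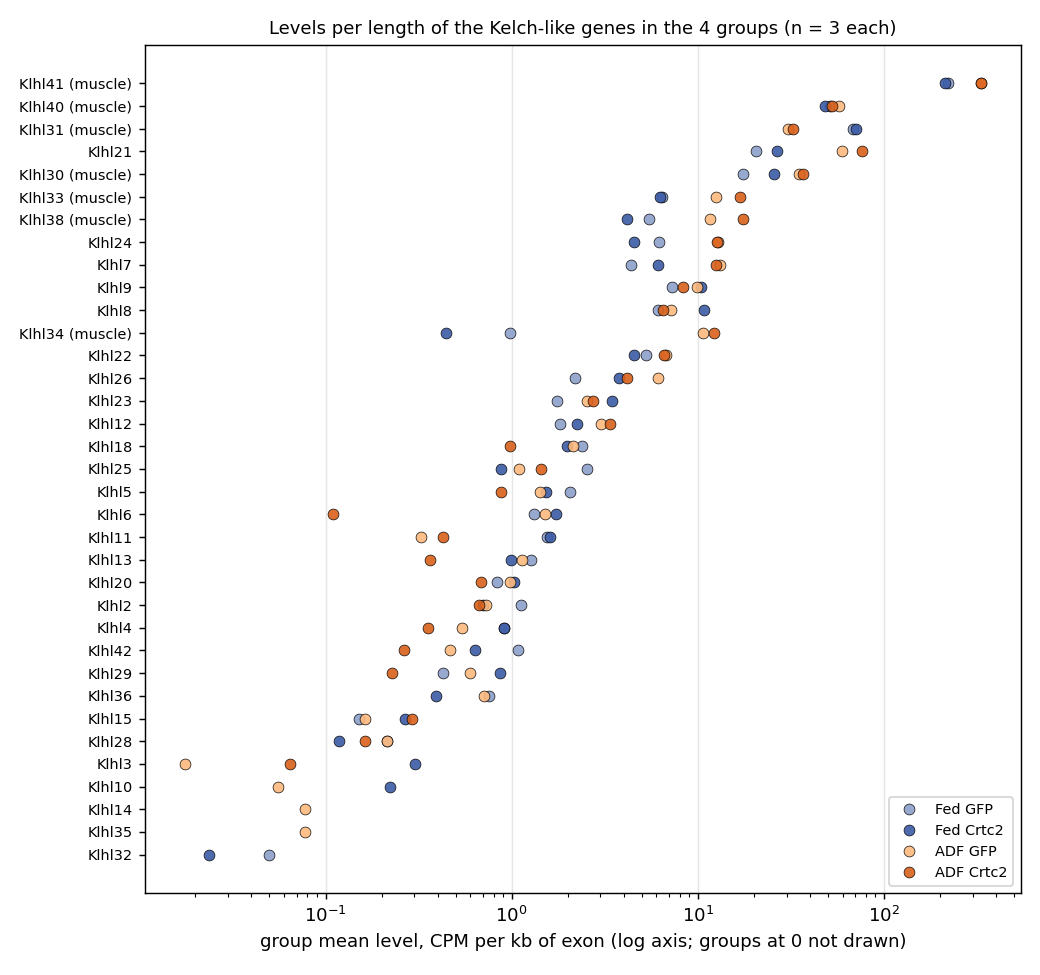
Group mean level of each of the 35 Kelch-like genes in CPM per kilobase of exon (log axis, groups at 0 not drawn), with 1 point per group of 3 libraries and genes ordered by level. Klhl41 stands to the right of all others in every group, and of the genes down to Klhl34 only Klhl31 has both ADF points to the left of both fed points.

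Upstream sequence is shown for 6 of the abundant or diet-responsive members, chosen because these stretches hold matches to motifs of muscle and of cAMP-responsive promoters. The stretches are from the RefSeq promoter table (GRCm38.p6), written 5′ to 3′ on the gene's own strand, and capitals mark matches. Klhl41 (chr2:69669970-69670119, + strand), Klhl40 (chr9:121777457-121777606, + strand) and Klhl34 (chrX:157818285-157818434, + strand) carry the muscle E-box letters CAGCTG, and Klhl41 and Klhl33 (chr14:50897508-50897657, - strand) carry a MEF2 site. Klhl21 (chr4:152008641-152008802, + strand) has the core CRE letters CGTCA overlapping CAGCTG, which gives one run of capitals, and Klhl7 (chr5:24100440-24100589, + strand) has the core CRE as TGACG.
Klhl41: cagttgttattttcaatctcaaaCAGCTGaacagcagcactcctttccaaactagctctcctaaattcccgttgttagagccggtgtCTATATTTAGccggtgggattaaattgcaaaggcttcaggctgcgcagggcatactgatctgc
Klhl40: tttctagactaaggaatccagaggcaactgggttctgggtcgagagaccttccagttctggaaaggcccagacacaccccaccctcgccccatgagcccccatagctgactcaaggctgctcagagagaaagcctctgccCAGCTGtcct
Klhl33: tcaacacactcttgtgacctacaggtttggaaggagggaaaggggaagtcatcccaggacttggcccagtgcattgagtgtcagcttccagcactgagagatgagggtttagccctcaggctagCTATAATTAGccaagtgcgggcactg
Klhl34: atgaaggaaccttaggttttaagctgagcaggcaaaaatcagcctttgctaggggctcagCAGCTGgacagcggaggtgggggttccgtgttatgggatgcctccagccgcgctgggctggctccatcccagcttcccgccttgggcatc
Klhl21: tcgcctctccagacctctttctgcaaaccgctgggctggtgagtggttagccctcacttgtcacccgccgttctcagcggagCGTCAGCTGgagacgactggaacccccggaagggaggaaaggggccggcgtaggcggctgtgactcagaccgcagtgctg
Klhl7: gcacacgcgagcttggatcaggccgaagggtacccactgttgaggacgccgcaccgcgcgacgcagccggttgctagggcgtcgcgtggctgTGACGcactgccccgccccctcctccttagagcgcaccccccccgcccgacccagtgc
In all, 29 of the 35 members had 39 start sites in the table, and 250 bases before each were searched on both strands. CAGCTG, its own reverse complement, was in 25.6% of these windows and in 13% of the 32851 windows of all promoters. The core CRE, TGACG or CGTCA, was also in 25.6% of the members' windows, against 17.8% of all. Windows of the same gene could overlap, as for Klhl13 and Klhl22, so a match could count more than once. Among members not shown, CAGCTG was found for Klhl4, Klhl5, Klhl6, Klhl13 and Klhl35. The core CRE was found for Klhl2, Klhl3, Klhl12, Klhl20, Klhl22, Klhl25 and Klhl28. None of these members passed in a comparison below by edgeR, while Klhl26 and Klhl31, which did, had no match. Klhl24, Klhl30 and Klhl38, which also passed, had no start site in the promoter table and were not searched. The full CRE, TGACGTCA, which contains both forms of the core, was found for Klhl12 alone (1.55% of all windows), the MEF2 site for Klhl33 and Klhl41 alone (0.508% of all), and the FoxO letters TGTTTAC or GTAAACA for no member (3.17% of all). These are matches of letters and say nothing of binding.

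ADF against fed in GFP muscle asks what fasting does to these genes without added Crtc2. Of the 31 tested members 6 rose (Klhl7, Klhl21, Klhl24, Klhl26, Klhl30 and Klhl33) and 1, Klhl31, fell at an adjusted p under 0.05. All adjusted p-values are from edgeR's quasi-likelihood test with Benjamini-Hochberg adjustment over the 16007 genes tested. Across all genes tested 7.12% passed, 4.06% higher and 3.06% lower. With library totals in place of TMM the same split over all genes was 476 higher and 596 lower in place of 650 and 490. The median log2 fold change was 0.23 over the members and -0.01 over all genes, and 0.97 over the 7 muscle genes, of which 2 rose and 1 fell. The 3 ADF and the 3 fed libraries did not overlap for 11 members, 9 of them higher and 2 lower under ADF, where 25.6% of all genes tested did not overlap, 14.3% higher and 11.3% lower. The count of members past the threshold was between 4 and 8 when 1 library was left out, and was 4 without fed GFP replicate 1.

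In Crtc2 muscle, ADF against fed asks the same of tissue with added Crtc2. Of the 31 members 7 rose (Klhl7, Klhl21, Klhl24, Klhl33, Klhl34, Klhl38 and Klhl41) and Klhl31 again fell, where 11% of all genes tested passed, 6.3% higher and 4.68% lower. With library totals that split over all genes was 511 higher and 1234 lower in place of 1009 and 749, and the median of all genes moved by -0.29 on the log2 scale. The median log2 fold change was -0.07 over the members, -0.13 over all genes and 0.64 over the 7 muscle genes, of which 4 rose and 1 fell. Libraries did not overlap for 14 members, 8 higher and 6 lower, where 30.5% of all genes tested did not overlap, 14.8% higher and 15.7% lower. Without ADF Crtc2 replicate 2, or without ADF Crtc2 replicate 3, 5 members passed in place of 8. The members that passed with both vectors were Klhl7, Klhl21, Klhl24, Klhl31 and Klhl33, which are 5 of the 7 calls in GFP and 5 of the 8 in Crtc2 muscle. The 2 comparisons share no library, but they were fitted together over all 12 libraries with a shared estimate of the spread, so they are not independent. How many of all genes passed with both vectors was not counted.

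**Figure D2:**
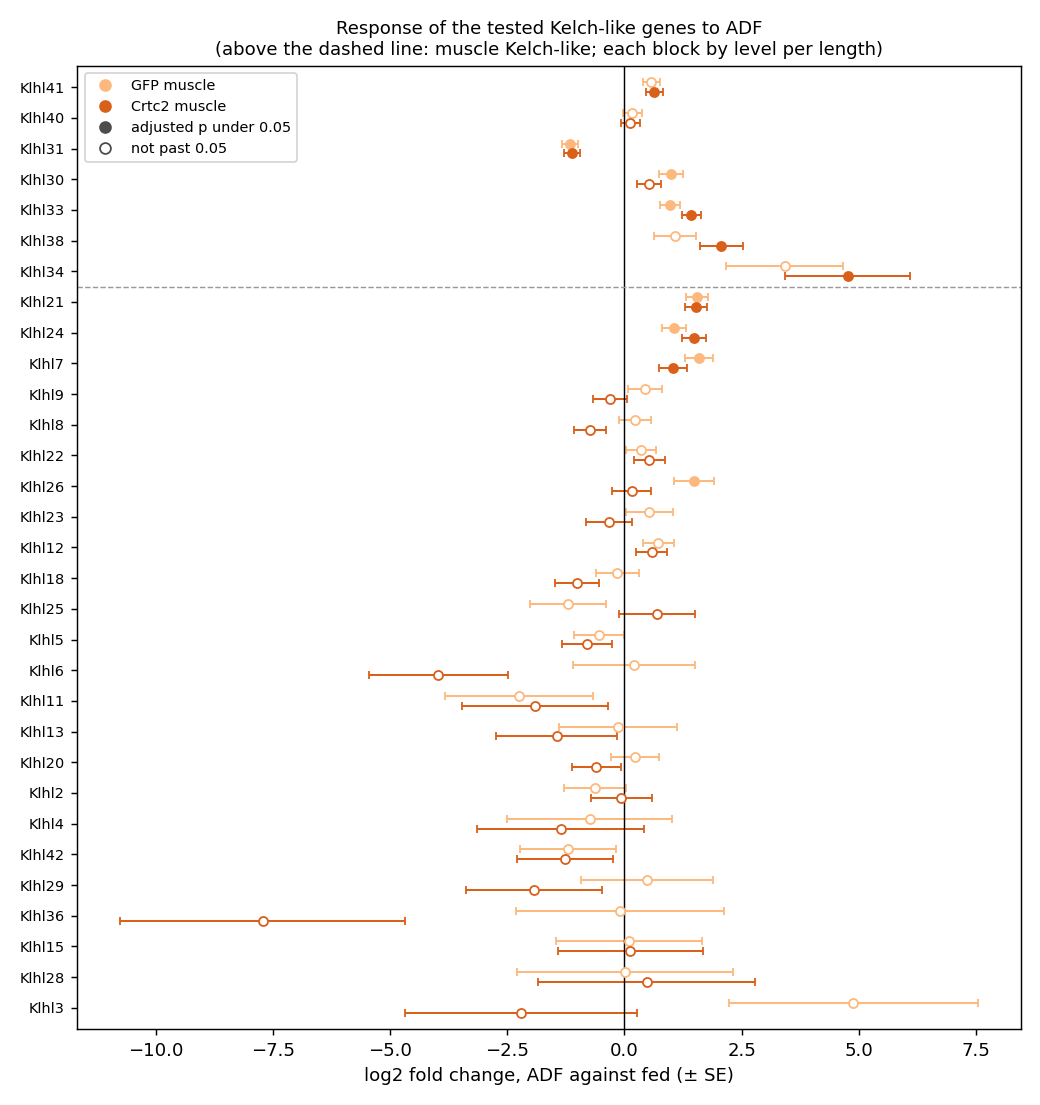
Log2 fold change of ADF against fed (point) with its SE (bar) for the 31 tested Kelch-like genes, in GFP muscle (light) and Crtc2 muscle (dark), with filled points for adjusted p under 0.05. Klhl31 is the only filled pair left of 0, at -1.17 and -1.12, and the widest bars belong to genes of low count such as Klhl36 and Klhl3.

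Klhl31 (chromosome 9, 77636500 to 77660127, GRCm38), the filamin C regulator of striated muscle, was the member that fell. Its level was 423, 464 and 449 CPM in the 3 fed GFP libraries and 169, 216 and 209.9 CPM in ADF GFP. In Crtc2 muscle it was 443, 463 and 469.9 CPM fed and 182, 238 and 213 CPM under ADF. Every ADF library was below every fed library with either vector. Its log2 fold change, given here and below with its SE, was -1.17 ± 0.17 in GFP muscle, 2.25-fold lower, with an adjusted p of 0.000103, and -1.12 ± 0.17 in Crtc2 muscle, 2.18-fold lower, with an adjusted p of 9.13e-05. The difference between the vectors in that response was 0.04 on the log2 scale, with a 95% interval of -0.44 to 0.53.

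Klhl41 (chromosome 2, 69670120 to 69684230), a thin filament chaperone, moved the other way. Its fed levels were 570.0, 564 and 553 CPM with GFP and 591, 644 and 380.4 CPM with Crtc2, and its ADF levels were 821, 869 and 825 CPM with GFP and 775, 925 and 809 CPM with Crtc2. All 6 ADF libraries were above all 6 fed libraries. With library totals they overlapped. Fed Crtc2 replicate 2 was then at 763 CPM, above ADF GFP replicate 1 (730 CPM) and ADF Crtc2 replicates 1 (650 CPM) and 3 (723 CPM). It rose 1.55-fold in Crtc2 muscle (log2 0.64 ± 0.18, adjusted p 0.0224), while the GFP comparison gave 0.58 ± 0.18 with an adjusted p of 0.0531. The Crtc2 call was lost without ADF Crtc2 replicate 2 (adjusted p 0.11), without ADF Crtc2 replicate 3 (0.0559) or without fed Crtc2 replicate 3 (0.118), with the 2 groups alone (0.0522), and with library totals (0.33, adjusted p 0.308). Leaving out fed Crtc2 replicate 2 or 3, libraries outside the GFP comparison, brought the GFP value past the threshold, at an adjusted p of 0.0399 and 0.0171, as did DESeq2 (0.0257).

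Klhl40 (chromosome 9, 121777607 to 121783818), the relative of Klhl41 that protects nebulin and leiomodin 3, did not pass in any comparison. Fed GFP libraries were at 124.4, 153.5 and 107 CPM and ADF GFP libraries at 175.3, 110.7 and 146.5 CPM. With Crtc2, fed libraries were at 116.7, 116 and 129.9 CPM and ADF libraries at 135.1, 125.4 and 135.9 CPM. The ranges of fed and ADF libraries overlapped with both vectors. The log2 fold change was 0.17 ± 0.20 in GFP muscle (95% interval -0.24 to 0.58, adjusted p 0.741) and 0.13 ± 0.20 in Crtc2 muscle (-0.28 to 0.54, adjusted p 0.783). The latter was -0.16 with library totals.

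Klhl33 (chromosome 14, 50888582 to 50897507), a striated muscle member of little studied function, rose with both vectors. Fed libraries were at 43.0, 41.8 and 36.4 CPM with GFP and 40.6, 32.6 and 45.8 CPM with Crtc2. ADF libraries were at 73.6, 91.5 and 72.8 CPM with GFP and 108, 106 and 106 CPM with Crtc2, so that ADF lay above fed throughout and ADF Crtc2 above ADF GFP. It rose 1.96-fold in GFP muscle (log2 0.97 ± 0.21, adjusted p 0.00523) and 2.69-fold in Crtc2 muscle (1.43 ± 0.21, adjusted p 9.13e-05). The difference between these responses was 0.46 ± 0.29 (adjusted p 0.747).

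Klhl30 (chromosome 1, 91351016 to 91362416), another muscle member, stood at 37.7, 66.2 and 58.6 CPM in fed GFP and at 121, 76.6 and 126 CPM in ADF GFP muscle. In Crtc2 muscle it was at 99.5, 73.1 and 64.9 CPM fed and 125, 134 and 82.7 CPM under ADF. The ranges were apart in GFP muscle and overlapped in Crtc2 muscle, where the fed level was higher. The log2 fold change was 0.99 ± 0.26 in GFP muscle (adjusted p 0.0202) and 0.52 ± 0.26 in Crtc2 muscle (adjusted p 0.214), and their difference was -0.47 ± 0.36 (adjusted p 0.813). The GFP call was lost without ADF GFP replicate 1 (adjusted p 0.088), ADF GFP replicate 3 (0.097) or fed GFP replicate 1 (0.103), and when the 2 groups were fitted alone (0.052).

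Klhl38 (chromosome 15, 58314573 to 58324169), a muscle member, was at 10.3, 10.5 and 15.5 CPM in fed GFP and 27.7, 22.9 and 26.2 CPM in ADF GFP muscle. With Crtc2 it was at 17.2, 3.43 and 7.18 CPM fed and 49.9, 40.5 and 26.2 CPM under ADF. Each ADF library exceeded each fed library in both tissues. The log2 fold change was 2.07 ± 0.46 in Crtc2 muscle (4.2-fold, adjusted p 0.00433) and 1.08 ± 0.44 in GFP muscle (adjusted p 0.171), with a difference of 0.99 ± 0.62 (adjusted p 0.741). An antisense gene, Gm15943, covers 65.4% of the exons of Klhl38, and the strand setting of the counting is not given in the sources used here, so reads of the pair cannot be told apart. Gm15943 had 13 counts in fed GFP, 163 in fed Crtc2, 266 in ADF GFP and 274 in ADF Crtc2 muscle, against 1031, 745, 2380 and 2917 for Klhl38.

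Klhl34 (chromosome X, 157818435 to 157820369), a gene of a single exon, was low in fed muscle. It was at 0, 3.23 and 2.49 CPM in fed GFP and 0, 1.51 and 1.07 CPM in fed Crtc2 muscle. Under ADF it was at 28.0, 19.3 and 14.4 CPM with GFP and 15.8, 31.2 and 24.4 CPM with Crtc2. The lowest ADF library was far above the highest fed library, yet the test passed in Crtc2 muscle only, with a log2 fold change of 4.77 ± 1.34 (27.2-fold, adjusted p 0.0395). The GFP value was 3.42 ± 1.25 (adjusted p 0.146). Its calls turned on the settings. The Crtc2 call was lost in 10 of the 12 fits that left out 1 library, at an adjusted p of 0.0572 to 0.141, and kept without fed GFP replicate 1 or fed Crtc2 replicate 1. In GFP muscle it passed without fed Crtc2 replicate 1 (adjusted p 0.0405) and with no filter on low counts (2.39e-06).

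**Figure D3:**
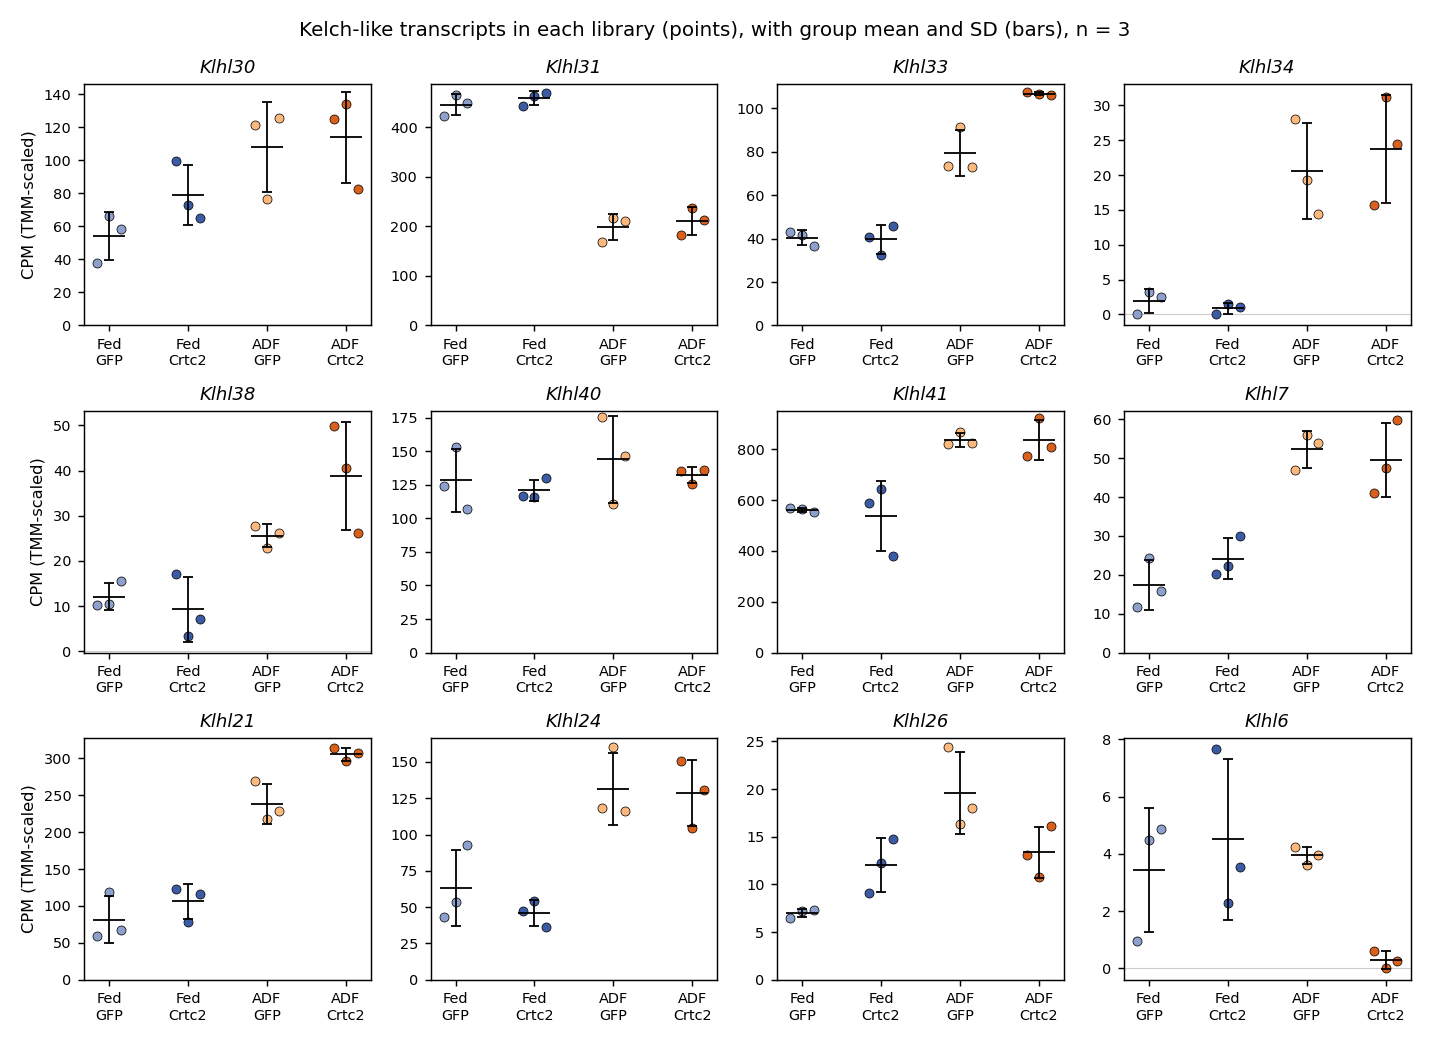
CPM in each library (points) with group mean and SD (bars, n = 3) for the 7 muscle Kelch-like genes, the 4 other members that passed in a diet comparison, and Klhl6. Klhl31 drops and Klhl33, Klhl34, Klhl38 and Klhl41 climb under ADF with no overlap of fed and ADF libraries of the same vector, whereas Klhl40 overlaps.

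Outside the muscle group, 4 of 24 tested members rose with GFP and 3 with Crtc2 by edgeR, and 0 fell. The shares of all genes were 4.06% higher and 3.06% lower with GFP, and 6.3% and 4.68% with Crtc2. DESeq2 also called Klhl6 and Klhl36 lower under ADF in Crtc2 muscle, where it called 1354 of all genes lower, against 749 by edgeR. Klhl21 (chromosome 4, 152008803 to 152017680), which directs the kinase Aurora B during cell division, had the highest level per length among these 24 members. Its fed libraries were at 58.7, 118 and 67.4 CPM with GFP and 123, 78.9 and 116 CPM with Crtc2. Its ADF libraries were at 269, 218 and 229 CPM with GFP and 314, 296 and 306 CPM with Crtc2. All ADF libraries were above all fed libraries, and those with Crtc2 above those with GFP under ADF. Klhl21 rose 2.92-fold in GFP muscle (log2 1.55 ± 0.23, adjusted p 0.000178) and 2.88-fold in Crtc2 muscle (1.53 ± 0.23, adjusted p 0.000134), and the difference was -0.02, with a 95% interval of -0.69 to 0.65. The antisense gene Gm9768 covers 20.5% of its exons and had 327 counts in all, against 61166 for Klhl21.

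Klhl24 (chromosome 16, 20097542 to 20129221), known for controlling keratin 14 in skin and desmin in heart, stood at 43.1, 53.4 and 93.0 CPM in fed GFP and 118, 160.3 and 116 CPM in ADF GFP muscle. In Crtc2 muscle it went from 47.6, 53.9 and 36.5 CPM fed to 150.4, 105 and 130.3 CPM under ADF. No fed library reached any ADF library. With library totals, fed GFP replicate 3, at 107.4 CPM, was above ADF GFP replicate 1 (105.1 CPM) and ADF Crtc2 replicate 2 (93.0 CPM). The rise was 2.08-fold in GFP muscle (log2 1.06 ± 0.26, adjusted p 0.0134) and 2.79-fold in Crtc2 muscle (1.48 ± 0.26, adjusted p 0.00059). The GFP call was lost without ADF GFP replicate 2 (adjusted p 0.0839), fed GFP replicate 1 (0.0736) or fed GFP replicate 2 (0.0612), and with library totals (0.0598).

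Klhl7 (chromosome 5, 24100605 to 24160792), a gene of inherited retinal disease, was at 11.8, 24.4 and 15.9 CPM in fed GFP and 46.9, 56.0 and 53.8 CPM in ADF GFP muscle. With Crtc2 it was at 20.2, 22.3 and 30.1 CPM fed and 41.0, 47.6 and 59.7 CPM under ADF. Fed and ADF libraries were apart with both vectors. It rose 3.01-fold in GFP muscle (log2 1.59 ± 0.30, adjusted p 0.00175) and 2.04-fold in Crtc2 muscle (1.03 ± 0.29, adjusted p 0.0253). The Crtc2 call was lost without ADF Crtc2 replicate 2 (adjusted p 0.0584), ADF Crtc2 replicate 3 (0.133), fed Crtc2 replicate 1 (0.101) or fed Crtc2 replicate 2 (0.0857), and with library totals (0.119).

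Klhl26 (chromosome 8, 70450219 to 70476968), a member whose substrates are little known, was at 6.50, 7.21 and 7.28 CPM in fed GFP and 24.5, 16.3 and 18.1 CPM in ADF GFP muscle, a 2.8-fold rise (log2 1.49 ± 0.42, adjusted p 0.0335). In Crtc2 muscle it was at 9.11, 12.2 and 14.7 CPM fed and 13.1, 10.8 and 16.1 CPM under ADF, which overlapped (0.15 ± 0.41, adjusted p 0.894). The 2 responses differed by -1.33 ± 0.59 with an adjusted p of 0.62, so the difference did not pass. The GFP call was lost without each single ADF GFP library (adjusted p 0.176, 0.0751 and 0.0893 for replicates 1 to 3), each fed GFP library (0.0797, 0.0714 and 0.0655) or ADF Crtc2 replicate 3 (0.0519), with library totals (0.0576), with no filter (0.0779) and with the 2 groups alone (0.0592).

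The other 20 tested members and Klhl40 passed in no comparison by edgeR, while DESeq2 passed Klhl6 and Klhl36 in 2 comparisons, with values given below. Their mean levels over the 12 libraries ran from 0.704 to 131 CPM with a median of 5.73 CPM, and 12 of the 21 were under 10 CPM. The 10 members that passed by edgeR had means of 11.8 to 694 CPM with a median of 77.7 CPM. The values of the 21 ran from -2.25 to 4.89 on the log2 scale in GFP muscle, 12 above and 9 below 0, and from -7.71 to 0.70 in Crtc2 muscle, 6 above and 15 below 0. The 3 highest per length among them outside the muscle group were Klhl9, an Aurora B adaptor, Klhl8, and Klhl22, an adaptor of the kinase Plk1. Klhl9 stood at 7.29 ± 2.86 and 9.86 ± 2.49 CPM per kilobase in fed and ADF muscle with GFP, and at 10.4 ± 4.15 and 8.37 ± 3.26 with Crtc2. In the same order Klhl8 was at 6.09 ± 0.947, 7.15 ± 1.93, 10.8 ± 4.53 and 6.48 ± 1.65, and Klhl22 at 5.30 ± 2.18, 6.76 ± 1.03, 4.56 ± 0.507 and 6.60 ± 1.90 CPM per kilobase. For these 3 genes the spread within groups was as wide as most of the gaps between them.

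Crtc2 against GFP asks what the coactivator does within one diet. In fed muscle 0 of the 31 members passed by edgeR, where 0% of all genes tested passed. By DESeq2 0 members passed, where 35 of all genes were called higher and 29 lower. At an unadjusted p under 0.05 there were 3 members, Klhl3, Klhl8 and Klhl30, with an adjusted p of 0.877 each, and 871 of all genes. Libraries did not overlap for 5 members (Klhl3, Klhl8, Klhl23 and Klhl26 higher and Klhl25 lower with Crtc2), where 8.53% of all genes did not overlap, 4.7% higher and 3.84% lower. Klhl3, an adaptor of the WNK kinases, was at 0 in all 3 fed GFP libraries, where the floor was 0.101 to 0.118 CPM, and at 2.35, 1.7 and 2.59 CPM in fed Crtc2, and at most at 0.676 CPM in an ADF library. For the abundant genes the 95% intervals were narrow. They were -0.43 to 0.31 for Klhl41, -0.49 to 0.32 for Klhl40 and -0.30 to 0.38 for Klhl31 on the log2 scale.

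Under ADF, Crtc2 against GFP again gave 0 of 31 members by edgeR, where 0.725% of all genes tested passed, 0.075% higher and 0.65% lower, and 3 at an unadjusted p under 0.05 (Klhl6, Klhl18 and Klhl36). Of the 16007 genes tested, 1809 had an unadjusted p under 0.05. DESeq2 passed 2 members, Klhl6 and Klhl36, both lower, where it called 126 of all genes higher and 430 lower, against 12 and 104 by edgeR. Libraries did not overlap for 8 members, with Klhl21 and Klhl33 higher and Klhl5, Klhl6, Klhl18, Klhl20, Klhl26 and Klhl36 lower with Crtc2, where 21.4% of all genes did not overlap, 9.6% higher and 11.8% lower. The 95% interval was -0.37 to 0.37 for Klhl41, -0.53 to 0.28 for Klhl40 and -0.25 to 0.43 for Klhl31. Klhl33 was at 0.43 ± 0.21 (adjusted p 0.443) and Klhl21 at 0.36 ± 0.23 (adjusted p 0.593).

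Klhl6, an adaptor of B lymphocytes, had 4.24, 3.62 and 3.96 CPM in ADF GFP muscle and 0.605, 0 and 0.249 CPM in ADF Crtc2 muscle. Fed GFP libraries were at 0.945, 4.49 and 4.85 CPM and fed Crtc2 libraries at 7.66, 2.29 and 3.55 CPM. The ADF Crtc2 libraries lay below the other 9. The log2 fold change of Crtc2 against GFP under ADF was -3.78 ± 1.47 (adjusted p 0.322 by edgeR and 0.0188 by DESeq2). That of ADF against fed in Crtc2 muscle was -3.97 ± 1.48 (adjusted p 0.0941 by edgeR and 0.00255 by DESeq2). The 6 B cell markers summed to 1.21 to 3.33 CPM in ADF Crtc2, with Cd79a, Cd79b, Ms4a1 and Pax5 at 0 in all 3 libraries. They summed to 6.01 to 29.8 CPM in ADF GFP, 6.53 to 25.8 in fed GFP and 3.28 to 7.85 in fed Crtc2 muscle. Ms4a1 and Pax5 were also at 0 in all 3 fed Crtc2 libraries, where Klhl6 was not low. T cell and macrophage markers were lowest in ADF Crtc2 muscle, and the part of these cells in the Klhl6 values was not tested. Klhl14, another gene of B cells, had its 24 counts in 1 ADF GFP library. Klhl36 was at 0 in all 3 ADF Crtc2 libraries (floor 0.107 to 0.13 CPM), at 1.57 to 1.73 CPM in ADF GFP and at 0 to 4.37 CPM in fed muscle. Its edgeR adjusted p was 0.293 for Crtc2 against GFP under ADF and 0.12 for ADF against fed in Crtc2 muscle, while DESeq2 gave 0.032 and 0.0236.

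The interaction of diet and vector asks whether the ADF response differed between GFP and Crtc2 muscle. It passed for 0 of 31 members by edgeR, where 0% of all genes tested passed. By DESeq2 it passed for 0 members, where 26 of all genes were called higher and 85 lower. At an unadjusted p under 0.05 there were 3 members, Klhl6, Klhl26 and Klhl36, and 1240 of the 16007 genes tested. Members that passed in one muscle and not in the other, such as Klhl30, Klhl34, Klhl38 and Klhl41, are therefore not shown to respond differently.

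The ligase that these adaptors serve was followed through 13 genes of the cullin 3 core and its neddylation. Cul3, the scaffold, rose in GFP muscle from 135 ± 24.2 to 237 ± 34.0 CPM (log2 0.82 ± 0.20, adjusted p 0.0133). In Crtc2 muscle it rose from 123 ± 27.4 to 307 ± 40.8 CPM (1.32 ± 0.20, adjusted p 0.000139). Nedd8, the modifier that activates cullins, fell with both vectors. It went from 126 ± 23.4 to 77.4 ± 10.2 CPM in GFP muscle (-0.70 ± 0.20, adjusted p 0.0298) and from 139 ± 17.8 to 81.0 ± 2.78 CPM in Crtc2 muscle (-0.77 ± 0.20, adjusted p 0.0119). Cand2, a cullin exchange protein of muscle, rose in GFP muscle (0.73 ± 0.21, adjusted p 0.0339), and Ube2m, the enzyme that conjugates Nedd8, rose in Crtc2 muscle (0.78 ± 0.21, adjusted p 0.0169). The count was thus 2 higher and 1 lower of 13 with each vector, with a median of -0.09 in GFP and 0.35 in Crtc2 muscle. Of all genes tested 4.06% rose and 3.06% fell in GFP muscle, and 6.3% rose and 4.68% fell in Crtc2 muscle. DESeq2 also called Rbx1 in Crtc2 muscle, which went from 141 ± 12.9 to 93.3 ± 10.9 CPM. Of these 6 calls only that of Cul3 in Crtc2 muscle held in all 12 fits without 1 library. Cul3 in GFP muscle was lost without ADF GFP replicate 2 (adjusted p 0.0769) or fed GFP replicate 1 (0.0714), and Nedd8 without ADF GFP replicate 1 (0.142), ADF GFP replicate 3 (0.122) or fed GFP replicate 1 (0.149). In Crtc2 muscle Nedd8 was lost without ADF Crtc2 replicate 1 (0.0568) or fed Crtc2 replicate 1 (0.061), and Ube2m without ADF Crtc2 replicate 2 (0.0702), ADF Crtc2 replicate 3 (0.0507) or fed Crtc2 replicate 2 (0.0956). Cand2 was lost without ADF GFP replicate 1 (0.17) or 2 (0.0925), or fed GFP replicate 1 (0.0857), 2 (0.0867) or 3 (0.0737).

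Nedd8 and the COP9 gene Cops9 are short, with 1261 and 1499 bases of exon, and Cul3 is longer, at 4873. Across the 7788 genes that averaged 10 CPM or more, Spearman's rho between exon length and log2 fold change was 0.173 in GFP and 0.0483 in Crtc2 muscle, as a description across genes, which are not independent. Its part in these values was not tested. Of the 10 genes of the COP9 signalosome, which takes Nedd8 off cullins, Cops9 fell in GFP muscle (102 ± 13.0 to 55.1 ± 11.1 CPM, log2 -0.89 ± 0.22, adjusted p 0.0133). Cops4 rose in Crtc2 muscle (55.3 ± 13.4 to 107 ± 6.2 CPM, 0.95 ± 0.23, adjusted p 0.00851). The other members passed with neither vector by edgeR. That made 1 of 10 with each vector, where 7.12% of all genes tested passed in GFP and 11% in Crtc2 muscle. DESeq2 also called Cops2, Cops8 and Cops9 in Crtc2 muscle. Cops9 was lost without ADF GFP replicate 2 (0.0831), ADF GFP replicate 3 (0.0825) or fed GFP replicate 1 (0.0592), and Cops4 without fed Crtc2 replicate 1 (0.0577).

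Among 13 BTB-Kelch adaptors that do not carry the Klhl name, 0 passed in GFP muscle by edgeR and 0 by DESeq2, with 1 at an unadjusted p under 0.05, Ipp. By edgeR 7.12% of all genes tested passed in GFP and 11% in Crtc2 muscle. In Crtc2 muscle 3 rose, and DESeq2 also called Kbtbd8, which went from 3.06 ± 2.49 to 0.0632 ± 0.0596 CPM. Keap1, which holds the oxidant response factor Nrf2 in check, went from 46.1 ± 4.6 to 109.7 ± 22.1 CPM (log2 1.25 ± 0.23, adjusted p 0.000746). Ivns1abp went from 67.1 ± 33.2 to 172 ± 29.4 CPM (1.35 ± 0.30, adjusted p 0.00456) and Ipp from 5.8 ± 0.9 to 19.0 ± 0.8 CPM (1.7 ± 0.48, adjusted p 0.0223). The Ipp call was lost without ADF Crtc2 replicate 1 (0.0738), 2 (0.0572) or 3 (0.0774), or fed Crtc2 replicate 2 (0.0853) or 3 (0.0651). For Crtc2 against GFP, 0 genes of these 3 lists passed by edgeR or DESeq2 in either diet. At an unadjusted p under 0.05 there was Keap1 in fed muscle, and there were Keap1, Ivns1abp, Ube2m and Dcun1d5 under ADF.

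**Figure D4:**
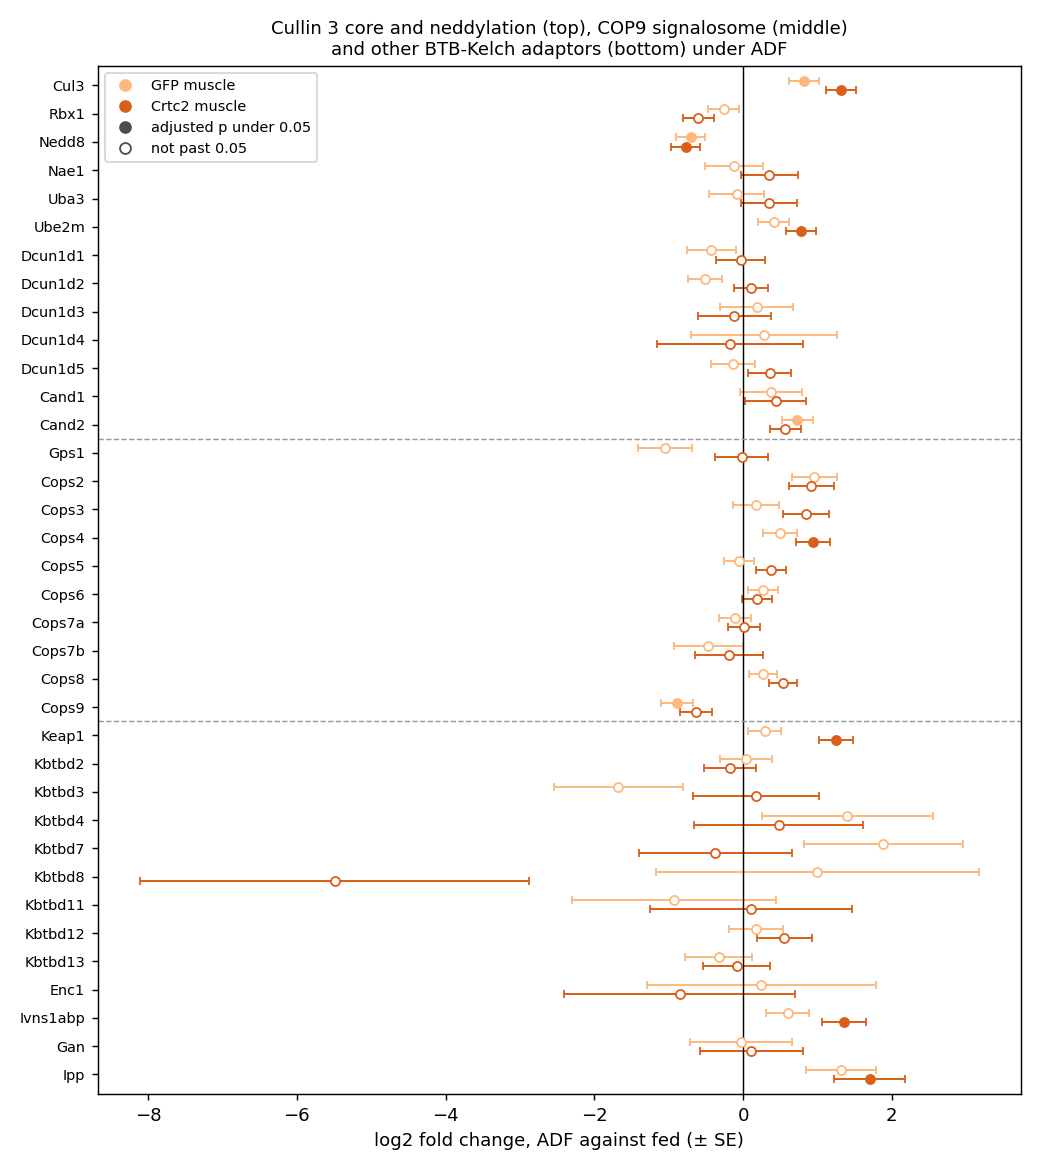
Log2 fold change of ADF against fed (point) with its SE (bar) for 13 genes of the cullin 3 core and neddylation (top), 10 of the COP9 signalosome (middle) and 13 other BTB-Kelch adaptors (bottom), in GFP muscle (light) and Crtc2 muscle (dark), filled for adjusted p under 0.05. Cul3 lies right of 0 and Nedd8 left of 0 with filled points for both vectors.

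Genes for proteins known as substrates or partners of Kelch-like adaptors were described from a list of 20, of which 19 were tested. In each muscle 4 rose and 0 fell by edgeR, where 4.06% of all genes tested rose in GFP and 6.3% in Crtc2 muscle. DESeq2 called 1 more in Crtc2 muscle, Plk1, which went from 1.22 ± 1.32 CPM fed to 0 in all 3 ADF libraries. Neb, nebulin, the thin filament ruler held by Klhl40 and Klhl41, rose from 3044 ± 806 to 5540.2 ± 916 CPM in GFP muscle (log2 0.86 ± 0.19, adjusted p 0.00655). In Crtc2 muscle it rose from 2760 ± 251 to 7159 ± 1168 CPM (1.38 ± 0.19, adjusted p 5.7e-05). Flnc, filamin C, the partner of Klhl31, rose from 502 ± 31.1 to 1254 ± 383 CPM in GFP muscle (1.32 ± 0.26, adjusted p 0.00415) and from 562 ± 157 to 1309 ± 506 CPM in Crtc2 muscle (1.22 ± 0.26, adjusted p 0.00488). The transcripts of Klhl31 and Flnc thus moved in opposite directions in both, and those of Klhl41 and Neb in the same direction. Filamin C protein was not examined here. Ulk1, an autophagy kinase and Klhl20 substrate, rose in GFP (1.44 ± 0.27, adjusted p 0.00151) and Crtc2 muscle (1.5 ± 0.27, adjusted p 0.000652). Sec31a, the vesicle coat gene of Klhl12, rose in GFP muscle (0.90 ± 0.21, adjusted p 0.011). Eif4ebp1, the translation repressor that Klhl25 targets, rose in Crtc2 muscle (1.39 ± 0.30, adjusted p 0.00344). Lmod3, leiomodin 3, had values of -0.23 ± 0.16 (adjusted p 0.49) and -0.31 ± 0.16 (adjusted p 0.258), and Des, desmin, 0.26 ± 0.17 (adjusted p 0.469) and 0.38 ± 0.17 (adjusted p 0.187), in GFP and Crtc2 muscle. Sec31a was lost without ADF GFP replicate 1 (0.0603) or 2 (0.0533). For Crtc2 against GFP 0 of the 19 passed by edgeR in either diet. DESeq2 passed 1, Plk1, under ADF, where Plk1, Aurkb and Dapk1 had an unadjusted p under 0.05, and 0 in fed muscle, where 0 did. Neb is also among the muscle fibre markers.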

How the data were processed

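Gene counts of 12 mRNA-seq libraries of mouse tibialis anterior were used as deposited, as raw counts per gene without normalization by the authors. Per the submitters' processing notes the genome build was GRCm38/mm10, and the tools named are DESeq2 1.18.1, Subread 1.6.1 with its featureCounts, HISAT2 2.0.5 and SAMtools 1.7. Their roles, the annotation release and the strand setting are not given in the sources used here. Per the labels' protocols 2 library kits were used, not tied to libraries, so a difference of kit between groups and the group cannot be told apart. Of the 22607 rows, 1 had a gene identifier and no symbol and was kept.

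Counts were fitted in R 4.3.3 with edgeR 4.0.16 (quasi-likelihood, robust, TMM, filterByExpr over 4 groups, Benjamini-Hochberg over 16007 genes, threshold 0.05), with 4 group means over all 12 libraries and 5 contrasts, a procedure tested on simulated data. Levels per length used merged exon lengths of GENCODE M21, in which all 35 members were found by identifier. Total counts were 24232450 to 34610417 per library. Alternatives were library totals, no filter, a mean of at least 10 CPM, the replicate number as a block, halved counts, the 2 groups alone, DESeq2 1.42.0, and leaving out each library. Full values are given for members past the threshold in any comparison and for the 7 muscle genes, with the 3 highest per length of the others, and for pathway genes past the threshold. Klhl3, Klhl36, Klhl11, Lmod3, Des and genes at an unadjusted p under 0.05 were named after their values were seen. The members and lists were chosen with earlier results of these data known.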

Additional observations from a re-analysis of the deposited data

How the results depend on the processing

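Between 4 and 8 Kelch-like genes passed for ADF against fed in GFP muscle when 1 of the 12 libraries was left out, and between 5 and 8 in Crtc2 muscle, in place of 7 and 8. The lowest counts were 4 without fed GFP replicate 1, and 5 without ADF Crtc2 replicate 2 or 3. For Crtc2 against GFP in fed muscle, under ADF, and for the interaction, 0 passed in each of these fits. DESeq2 gave 2 for Crtc2 against GFP under ADF in place of 0, 8 for ADF in GFP muscle in place of 7, and 10 in Crtc2 muscle in place of 8, with 3 lower in place of 1. Its calls over all genes were also more numerous. They were 126 higher and 430 lower for Crtc2 against GFP under ADF, against 12 and 104 by edgeR. For ADF they were 840 and 795 in GFP muscle, against 650 and 490, and 1151 and 1354 in Crtc2 muscle, against 1009 and 749. Of the COP9 genes DESeq2 passed 4 in Crtc2 muscle in place of 1. With the replicate number as a block, 7 members passed for GFP and 8 for Crtc2 muscle, and 0 in the other 3 comparisons. Whether equal replicate numbers pair the libraries is not given in the sources used here. Of 18 pairs of libraries with the same number, 1 had deviations from their group means that correlated above 0.1 (r from -0.04 to 0.13). Of 36 pairs with different numbers, 0 did (r from -0.12 to 0.05). Correlations this weak cannot decide whether libraries shared an animal. The named genes were followed in the comparisons where they passed in the main fit or, for members, in an alternative. Within that set, 756 alternative values kept their direction. Of these, 675 also stayed on the same side of the threshold, while 71 calls were lost and 10 gained. Values outside that set could change sign, such as Klhl40 for ADF in Crtc2 muscle, at 0.13 in the main fit and -0.16 with library totals. Klhl21, Klhl31 and Klhl33 with both vectors, Klhl7 in GFP muscle, and Klhl24 and Klhl38 in Crtc2 muscle passed in all 19 alternatives each. Ivns1abp in Crtc2 muscle was lost with library totals (adjusted p 0.0796), as were Cul3 (0.0566) and Cand2 (0.0585) in GFP muscle and Cops4 (0.0808), Ipp (0.0672) and Ube2m (0.0757) in Crtc2 muscle, and Nedd8 in GFP muscle with the 2 groups alone (0.0714). The cause was not tested. Of the 21 members that passed in no comparison by edgeR, 12 were under 10 CPM. Halving the mostly even counts left 8 calls in Crtc2 muscle and gave 8 in GFP muscle, with Klhl41 added.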

Other observations

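Klhl11, an adaptor of low level here that was singled out after its values were seen, had 5.47, 2.69 and 2.96 CPM in fed GFP and 4.85, 2.41 and 4.33 CPM in fed Crtc2 muscle. Under ADF it had 0.685, 1.64 and 0 CPM with GFP and 1.17, 1.34 and 0.569 CPM with Crtc2. Every ADF library was below every fed library. Its log2 fold changes, -2.25 ± 1.58 (SE) in GFP and -1.91 ± 1.56 in Crtc2 muscle, did not pass (edgeR adjusted p 0.487 and 0.519). The groups did not overlap for 25.6% and 30.5% of all genes tested in these comparisons.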
